A study of Mus musculus with 3 samples.

Results

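The C-type lectin receptor genes of the macrophage surface followed here were Clec4d, Clec4e, Clec4n, Clec4a1, Clec4a2, Clec4a3, Clec5a, Clec7a, Clec10a and Mrc1. They were chosen by gene symbol from the GENCODE M21 annotation and make up 10 of its 55536 genes. The libraries hold ribosomal RNA-depleted total RNA of the cytosolic fraction of macrophages grown from the bone marrow of C57BL/6J mice, all stimulated for 120 min with 100 ng/ml lipid A, the part of bacterial lipopolysaccharide that TLR4 senses. There is 1 group of 3 libraries, the biological replicates 1, 2 and 3, each from 1 µg of RNA and with a size range of 250 to 400 bp. No unstimulated cells, second time point or second fraction were analysed here, so every value is a level in stimulated cells and none is a response to lipid A. The labels give the replicates 1 shared donor identifier and do not say whether separate animals were used. SDs and p-values therefore describe how far these samples differ from each other, and that spread may be technical. In bulk RNA, fewer cells carrying a transcript and less of it per cell cannot be told apart.

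C-type lectin receptors bind sugars and lipids of fungi, mycobacteria and damaged cells through a carbohydrate-recognition domain. Several lack a signalling motif of their own and pair with the adaptor FcRγ or DAP12, which recruits the kinase Syk and, through the CARD9, BCL10 and MALT1 complex, leads to NF-kB. Others carry an inhibitory tail motif or serve mainly in uptake. In macrophages and dendritic cells the genes lie largely in 2 groups on mouse chromosome 6, named after Dectin-1 and Dectin-2.

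The libraries held 30948620, 113924667 and 59635907 expected counts over annotated genes in replicates 1, 2 and 3. An expected count is a model's estimate of reads per gene and TPM is that estimate per transcript length, with a fixed sum per library. Nuclear-encoded protein-coding genes took 23.5%, 21.1% and 22.0% of TPM. Of 10 macrophage markers 9 were detected, which means a TPM of at least 1 in every library, and Marco was not. No dendritic cell marker of 10 was detected, with a summed level of 2.91 to 4.64 TPM. Of 10 neutrophil markers, S100a9, S100a8 and Ngp were detected, the list summed to 21.5 to 29.4 TPM, and Ly6g had 0 counts. Of 10 lymphocyte markers only Cd4 was detected, at 17.5 to 18.8 TPM, and the list summed to 17.6 to 18.9 TPM.

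In 4 of the receptor genes the annotated coding messages differ by 1 cassette exon. The exons that separate them are shown here because the transcript shares given further on rest in part on reads across them. Those shares also depend on the annotated ends and lengths of the transcripts. Coordinates are mm10, the sequences are those of the GENCODE M21 transcripts, and every base printed is annotated as coding sequence. Exon 3 of Clec7a, 135 bases at chr6:129468869-129469003 on the minus strand, covers the stalk of Dectin-1. It is printed as in Clec7a-204, which the annotation classes as a polymorphic pseudogene. As printed it holds a stop codon in every reading frame, so this version is not an open message for the stalk. Exon 3 of Clec4n, 102 bases, lies at chr6:123232093-123232194 on the plus strand. Exon 3 of Clec5a, 75 bases, lies at chr6:40584356-40584430 on the minus strand. Exon 4 of Clec4a2, 72 bases, lies at chr6:123139057-123139128 on the plus strand. The length of each of the 4 is a multiple of 3, so skipping keeps the reading frame. The last sequence is different in kind: it is the first 77 bases of exon 4 of Clec4d, chr6:123267992-123268068 on the plus strand, which a transcript annotated for nonsense-mediated decay leaves out, and 77 leaves a remainder of 2 when divided by 3.
Clec7a exon 3: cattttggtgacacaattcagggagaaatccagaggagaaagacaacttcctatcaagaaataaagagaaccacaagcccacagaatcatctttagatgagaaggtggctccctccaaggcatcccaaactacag
Clec4n exon 3: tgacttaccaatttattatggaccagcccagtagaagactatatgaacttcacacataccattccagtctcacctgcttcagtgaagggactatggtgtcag
Clec5a exon 3: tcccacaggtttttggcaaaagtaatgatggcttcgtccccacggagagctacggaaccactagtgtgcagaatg
Clec4a2 exon 4: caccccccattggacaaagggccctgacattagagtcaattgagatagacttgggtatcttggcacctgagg
Clec4d exon 4 start: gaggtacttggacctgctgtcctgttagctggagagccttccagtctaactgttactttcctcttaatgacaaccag

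All 10 receptor genes were detected, against 37.6% of 22015 nuclear-encoded protein-coding genes. The 10 were chosen with earlier results of these data known, so their detection may follow from the choice. Their mean levels ran from 9.38 to 307 TPM with a median of 52.1 TPM, and the median of the 8281 detected protein-coding genes was 6.84 TPM. Summed over the 10 genes the level was 882, 718 and 786 TPM in replicates 1, 2 and 3. Clec4d alone made up 36.2%, 41.8% and 38.6% of that sum.

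**Figure D1:**
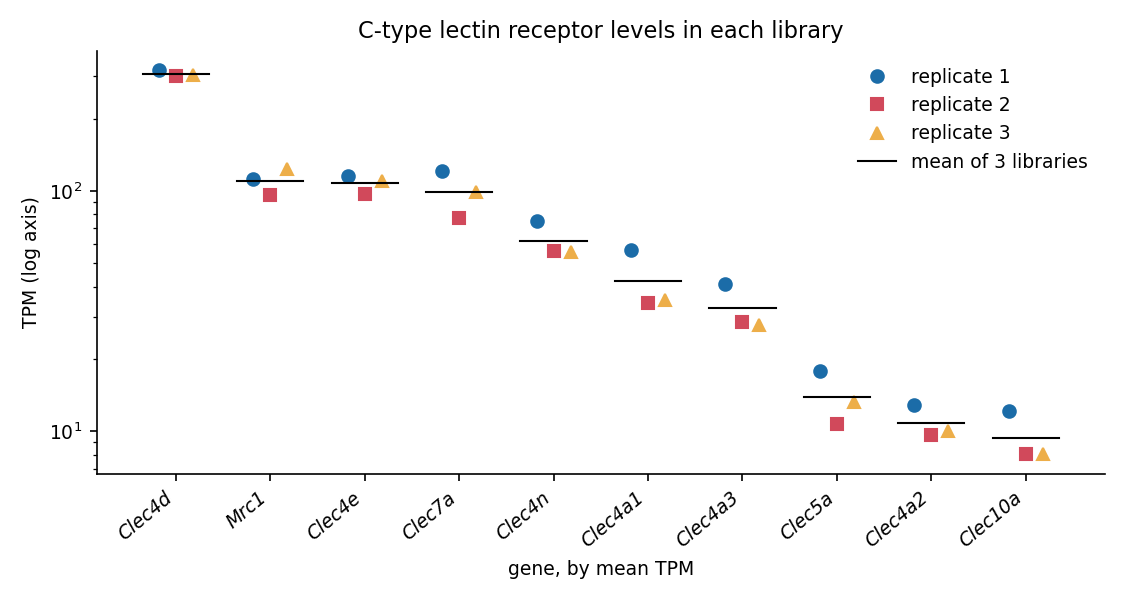
Level of each receptor gene in TPM (log axis) in each of the 3 libraries, with the mean as a bar. Clec4d lies above all others near 300 TPM, Mrc1, Clec4e and Clec7a lie together near 100 TPM, and Clec5a, Clec4a2 and Clec10a lie lowest.

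Clec4d encodes MCL, an FcRγ-coupled receptor for the mycobacterial cord factor trehalose dimycolate that also helps bring Mincle to the surface. Its level was 319, 300 and 304 TPM in replicates 1, 2 and 3 (307 ± 10.01 TPM, SD, n = 3), from 18284, 71468 and 35197 counts. The libraries lay close together, and the gene ranked 85 among protein-coding genes. Clec4e, which encodes Mincle, the second cord factor receptor, stood at 115.2, 97.0 and 110.5 TPM (108 ± 9.45 TPM, SD, n = 3), rank 336, and replicate 2 was lowest. Within each library Clec4d was higher than Clec4e by a ratio of 2.77, 3.09 and 2.75. Clec4n encodes Dectin-2, the FcRγ-coupled receptor for fungal mannans. It had 74.8, 56.2 and 55.6 TPM (62.2 ± 10.9 TPM, SD, n = 3), rank 596, with replicate 1 above the other two.

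Clec7a encodes Dectin-1, the β-glucan receptor, which carries its own Syk-binding motif. Its level was 121, 77.5 and 99.1 TPM (99.1 ± 21.5 TPM, SD, n = 3), rank 361, from 10452, 28184 and 17382 counts. Replicate 1 was high, replicate 2 low and replicate 3 between them. The annotation classes Clec7a as a polymorphic pseudogene, so a filter on the protein-coding class alone would drop it. Clec5a encodes MDL-1, a DAP12-coupled receptor of myeloid cells. It was measured at 17.8, 10.7 and 13.2 TPM (13.9 ± 3.61 TPM, SD, n = 3), rank 2459, in the same order of libraries as Clec7a.

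The Clec4a genes encode the DCIR family, named for dendritic cell immunoreceptor. Clec4a2 encodes DCIR1, which carries an inhibitory tyrosine motif. It was the lowest of the 3 Clec4a genes followed here, with 12.8, 9.67 and 10.1 TPM (10.9 ± 1.73 TPM, SD, n = 3), rank 2991, from 651, 2116 and 1008 counts. Clec4a1, which encodes DCIR4, had 56.7, 34.1 and 35.3 TPM (42.1 ± 12.7 TPM, SD, n = 3), rank 854. Clec4a3, which encodes DCIR3, had 41.1, 28.5 and 27.7 TPM (32.4 ± 7.49 TPM, SD, n = 3), rank 1113. In all 3 genes replicate 1 was above the other libraries. In every library the order was Clec4a1, then Clec4a3, then Clec4a2, with ratios of Clec4a1 to Clec4a3 of 1.38, 1.20 and 1.27 and of Clec4a3 to Clec4a2 of 3.20, 2.95 and 2.76.

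Mrc1 and Clec10a are the uptake receptors of the set. Mrc1 encodes the mannose receptor CD206, which takes up glycoproteins with terminal mannose or fucose, and Clec10a encodes MGL1, a galactose-type lectin. Mrc1 had 112.0, 96.45 and 123 TPM in replicates 1, 2 and 3, rank 326, and by this TPM was the only member with replicate 3 highest. Its counts of 32002, 114040 and 71617 were the largest of the set, on the longest message, 5374 bases in its full coding transcript. Clec10a had 12.1, 8.02 and 8.01 TPM, rank 3331, from 799, 2331 and 1114 counts. It was lowest of the 10 in every library. The deposited credibility intervals of TPM for Clec10a, which cover uncertainty within a library only, were 11.6 to 14.2, 7.86 to 8.60 and 7.80 to 9.04, so replicate 1 lay apart from the other libraries.

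Of the 9 pairs of neighbours in the order of mean levels, 7 kept the same order in every library and 3 had ranges that did not overlap. Those 3 were Clec4d above Mrc1, Clec7a above Clec4n and Clec4a3 above Clec5a, with within-library ratios of 2.47 to 3.11, 1.38 to 1.78 and 2.10 to 2.66. Mrc1, Clec4e and Clec7a could not be placed in order: Mrc1 was above Clec4e in 1 of 3 libraries, and Clec4e was above Clec7a in 2 of 3. With 3 libraries the smallest p an exact two-sided sign test allows is 0.25, so no pair was tested. In the second deposited quantification, in the column layout of kallisto, the order was the same but for Clec4e and Mrc1, which changed places. TPM itself was lower there, for example 124 ± 27.0 TPM (SD, n = 3) for Clec4d. Rescaled so that protein-coding genes alone fill the TPM sum, Clec4d came to 1386 ± 32.8 in the first quantification and 1435 ± 58.1 in the second.

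The stretch of chromosome 6 from Clec4a1 to Clec4e holds 6 of the genes in 368 kb (chr6:122921848-123289870, mm10). Along it lie Clec4a1 (122921848 to 122934619), Clec4a3 (122952515 to 122969875), Clec4a2 (123106428 to 123143999), Clec4n (123229843 to 123247021) and Clec4d (123262111 to 123275265) on the plus strand, and Clec4e (123281789 to 123289870) on the minus strand. The lectin genes placed between them were low. Clec4a4, which encodes DCIR2, had 3, 22 and 9 counts (0.14 ± 0.035 TPM, SD, n = 3). Clec4b2 had 2, 2 and 1 counts, and Clec4b1 reached 0.92 ± 0.27 TPM (SD, n = 3). Genes with at most 88 counts in every library thus lie interspersed among receptor genes with at least 651 along the stretch. Beyond its ends, C3ar1, the complement C3a receptor gene, stood at 151.1, 118.5 and 118.4 TPM, and Necap1, between C3ar1 and Clec4a1, at 4.59, 3.27 and 3.86 TPM. Vmn2r19, a vomeronasal receptor gene on the other side, had 0 counts in every library.

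**Figure D2:**
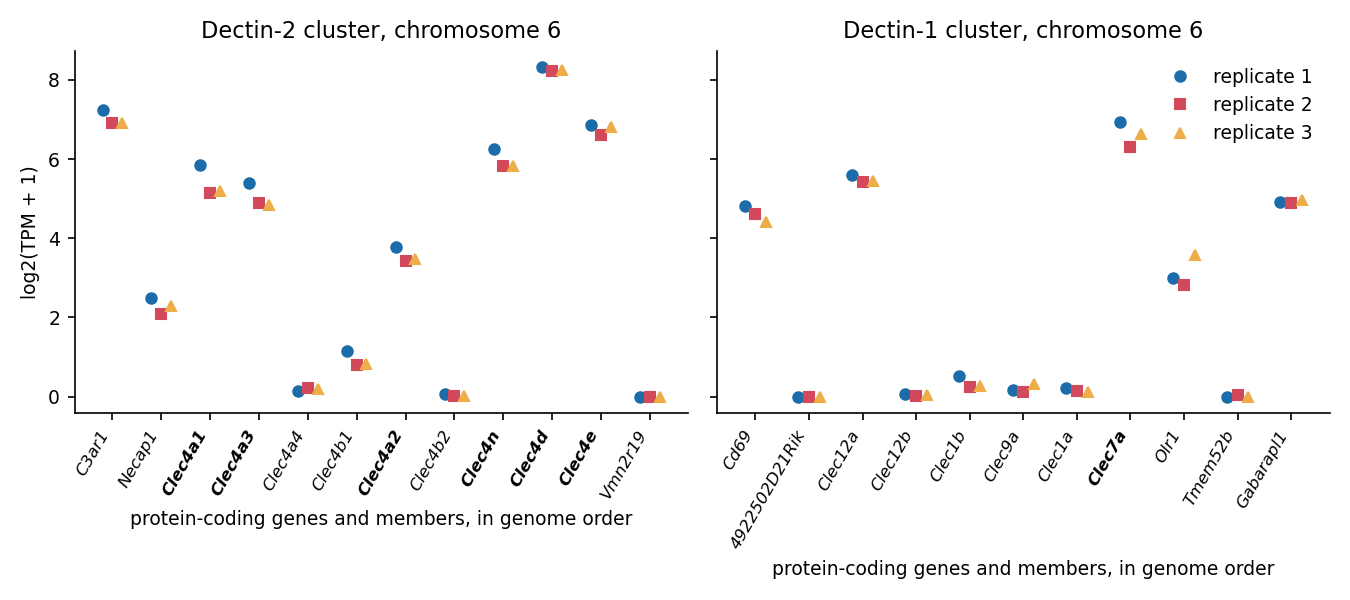
Level of each gene as log2(TPM + 1) in each library, in genome order, for the Dectin-2 cluster (left) and the Dectin-1 cluster (right), with the receptor genes described here in bold. Clec4d is the highest point of the left panel and Clec7a of the right, and the lectin genes Clec4a4, Clec4b2, Clec12b, Clec1b, Clec9a and Clec1a lie near 0.

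Clec7a lies elsewhere on the same chromosome (chr6:129461591-129472779, minus strand), in a row of further lectin genes. Clec12a, an inhibitory receptor gene of myeloid cells, had 47.5, 42.0 and 42.8 TPM, and Cd69, an activation marker of leukocytes, had 27.0, 23.3 and 20.5 TPM. Olr1, which encodes the oxidised LDL receptor LOX-1, had 6.97, 6.05 and 11.0 TPM, highest in replicate 3. The 4 genes between Clec12a and Clec7a, Clec12b, Clec1b, Clec9a and Clec1a, had mean levels of 0.027 to 0.28 TPM. Clec5a lies at chr6:40574894-40585821 on the minus strand, Clec10a at chr11:70156197-70170834 on the plus strand and Mrc1 at chr2:14229392-14332057 on the plus strand.

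The DCIR genes are close relatives, so their sequences were compared to see whether reads could be told apart. Coding sequences of the 6 genes of the stretch were 47.9% to 68.7% identical, highest between Clec4a1 and Clec4a3. Coding exon 3, of 102 bases in Clec4a1, Clec4a2 and Clec4a3, is printed with capitals at the bases that differ from Clec4a2. It lies at chr6:123127952-123128053 in Clec4a2, chr6:122927964-122928065 in Clec4a1 and chr6:122964247-122964348 in Clec4a3, all on the plus strand of mm10. Clec4a1 differed from Clec4a2 at 40 of the 102 bases (60.8% identical) and Clec4a3 at 31 (69.6% identical).
Clec4a2 coding exon 3: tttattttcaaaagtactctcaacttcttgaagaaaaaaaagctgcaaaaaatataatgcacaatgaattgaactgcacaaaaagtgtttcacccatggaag
Clec4a1 coding exon 3: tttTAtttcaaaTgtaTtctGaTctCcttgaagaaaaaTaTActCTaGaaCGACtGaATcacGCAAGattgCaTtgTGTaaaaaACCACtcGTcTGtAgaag
Clec4a3 coding exon 3: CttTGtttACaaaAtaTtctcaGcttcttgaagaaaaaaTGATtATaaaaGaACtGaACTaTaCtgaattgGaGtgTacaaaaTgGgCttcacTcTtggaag

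Over whole transcripts, the share of 50-base words that also occur in another gene was 0% for Clec4a1, Clec4a3, Clec4d, Clec4e, Clec5a, Clec7a and Mrc1, and 0.69% for Clec4n. It was 6.83% for Clec4a2, shared mostly with Clec4a4 and Clec4b1, and 9.02% for Clec10a, shared mostly with Mgl2, the gene of the paralogue MGL2. At 100 bases those shares were 2.14% and 2.64%. By sequence alone, reads of Clec4a2 and Clec10a are thus harder to assign than those of the other 8. The expected counts of Clec4a2 were whole numbers in every library, 651, 2116 and 1008, which gives no sign of reads split with another gene. Those of Clec10a were fractional in replicates 1 and 2, at 798.8 and 2330.7. The partner genes were low themselves: Mgl2 had 0.35, 0.23 and 0.26 TPM. It is not given in the sources used whether the counting took strand into account. The annotated genes overlapping a member, Mir511 in Mrc1 and Gm44132 in Clec4a2, had 0 counts.

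Of the 10 receptor genes 9 had a protein-coding transcript as the highest one in the RSEM-layout table, and the exception was Clec5a. The annotation holds 45 transcripts of the 10 genes, of which 25 had a mean of at least 1 TPM and 6 had 0 counts in every library. Shares below are percent of a gene's TPM, given for the RSEM-layout table, with the share from the second quantification after it. The highest transcript was the same in both for 9 genes, all but Clec7a. In the second quantification Clec7a-204, classed as a polymorphic pseudogene, led there with 35.1% against 32.6% for the protein-coding Clec7a-201.

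In Clec7a, transcripts with the stalk exon took 67.9%, 69.5% and 67.9% (68.5% ± 0.92, SD, n = 3; 67.7% ± 0.81 in the second quantification). The form without it took 31.9%, 30.3% and 31.9% (31.3% ± 0.90, SD, n = 3; 31.2% ± 0.81). Both shares differed little between libraries although the level of the gene differed 1.56-fold between the highest and the lowest. The form with the stalk exon is the sum of Clec7a-201 and Clec7a-204, whose annotated coding sequences of 732 bases differ at 8 positions between bases 203 and 211. The protein-coding Clec7a-201 took 36.8% ± 1.42 (SD, n = 3; 32.6% ± 1.79 in the second quantification), close to the short form. Clec7a-204, classed as a polymorphic pseudogene, took 31.7% ± 2.20 (SD, n = 3; 35.1% ± 1.56). The sum is therefore not a share of protein-coding messages. The short form is modelled with 707 bases against 2272 for Clec7a-204, so its share depends on an annotated end just past the coding sequence.

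Clec4n showed the same kind of split, with exon 3 present in 68.9%, 71.7% and 73.3% (71.3% ± 2.22, SD, n = 3; 73.6% ± 2.42 in the second quantification). It was absent in 29.8%, 26.5% and 25.6% (27.3% ± 2.20, SD, n = 3; 24.0% ± 2.13). Replicate 1 had the lowest share with the exon. In Clec4a2 the order was the other way round. Exon 4 was present in 39.4%, 36.4% and 31.5% (35.8% ± 3.99, SD, n = 3; 30.6% ± 2.27) and absent in 57.2%, 60.03% and 60.6% (59.2% ± 1.83, SD, n = 3; 62.6% ± 2.09). Most of the rest was Clec4a2-205, a transcript of 343 bases counted in neither form, with 3.43%, 3.41% and 7.68%. The lower share with exon 4 in replicate 3 is therefore not a measure of exon use alone. In every library and in both quantifications, Clec7a and Clec4n had more of the form with the exon and Clec4a2 more of the form without it. For Clec7a this counts Clec7a-204 as well as the protein-coding Clec7a-201.

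Clec5a had most of its TPM, 54.5%, 54.9% and 57.5% (55.6% ± 1.63, SD, n = 3; 54.7% ± 2.56 in the second quantification), in Clec5a-201, which has no annotated coding sequence. The coding form with exon 3 took 26.7% ± 0.27 (SD, n = 3; 32.1% ± 0.12) and the coding form without it 16.6% ± 1.28 (SD, n = 3; 9.81% ± 0.41). By TPM the 2 coding forms had 3.72 ± 0.98 and 2.29 ± 0.55 (SD, n = 3), out of 13.9 for the gene. They are modelled with 858 bases with exon 3 and 3747 without it, so their order by TPM depends on the annotated ends. By expected counts, which are not per length, the order was reversed. The form with exon 3 had 168.4, 425.7 and 249.7 counts and the form without it 579.5, 1557.5 and 810.4.

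**Figure D3:**
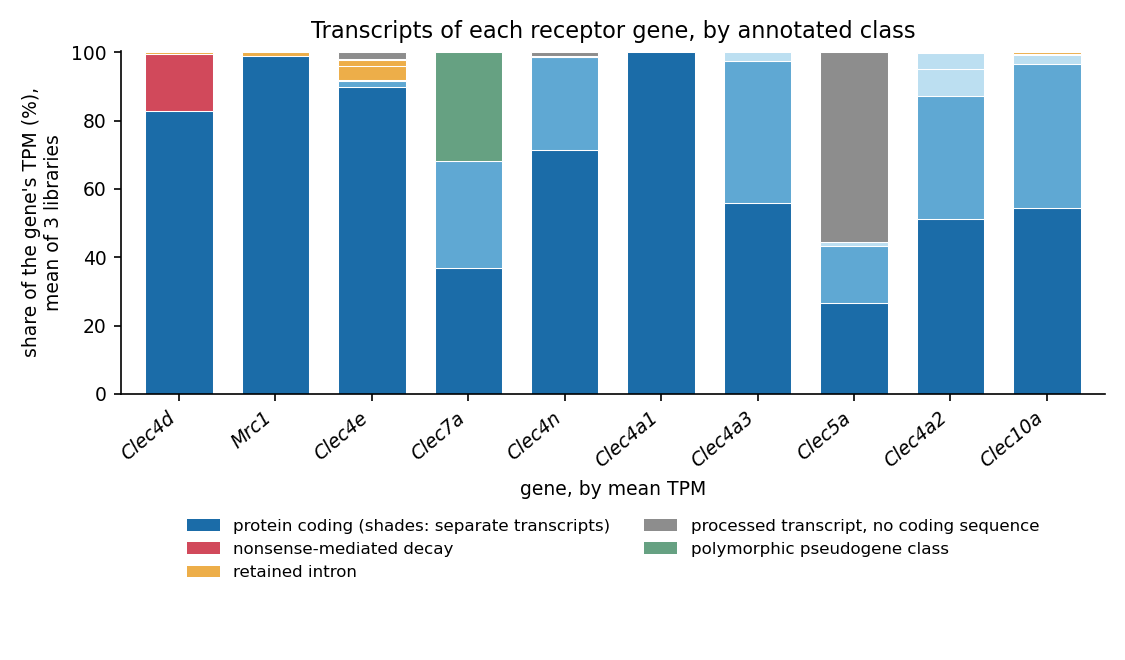
Share of each gene's TPM in its annotated transcripts, in percent, mean of 3 libraries in the RSEM-layout table, coloured by annotated class with shades for separate coding transcripts. Clec4a1 and Mrc1 are almost all 1 coding transcript, Clec4d has a block of 16.8% annotated for decay, and 55.6% of Clec5a has no coding sequence.

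In Clec4d the decay transcript, which lacks the 77 bases printed above, took 16.3%, 16.8% and 17.2% (16.8% ± 0.43, SD, n = 3; 22.9% ± 2.69 in the second quantification). The full coding transcript took 82.8% ± 0.48 (SD, n = 3; 76.5% ± 2.41). The decay transcript alone had 52.0, 50.3 and 52.2 TPM, a mean level above those of the whole genes Clec4a1, Clec4a3, Clec5a, Clec4a2 and Clec10a. It is modelled with 910 bases against 1323 for the full coding transcript, so its TPM depends on the annotated length. Its expected counts of 1982.4, 8038.0 and 4048.1 were below those of Clec4a1, at 4232, 10532 and 5342. By counts its order with Clec4a3 differed between libraries, and it stayed above Clec5a, Clec4a2 and Clec10a. In Clec4e the full coding transcript took 88.2%, 91.5% and 89.8% (89.8% ± 1.62, SD, n = 3; 75.4% ± 2.63). Transcripts with a retained intron took 7.72%, 4.18% and 6.44% of Clec4e, and 14.9% ± 3.06 (SD, n = 3) in the second quantification. Mrc1 was 99.0% ± 0.92 (SD, n = 3; 99.3% ± 0.59 in the second quantification) full coding transcript, with a retained-intron share of 2.04%, 0.28% and 0.67%.

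The retained-intron share was lowest in replicate 2 in 4 of the 5 genes with such a transcript above 0 (Clec4d, Clec4e, Clec7a and Mrc1, not Clec10a), and the same held for 70.5% of 3171 genes with a mean of at least 5 TPM and such a transcript. In the second quantification Clec7a went the other way, with 0.91%, 1.23% and 1.06%. Malat1, a nuclear noncoding RNA, was also lowest in replicate 2, at 741, 178 and 812 TPM, and its part in this order was not tested. Clec4a3 was split between a pair of transcripts, 55.8% ± 2.93 and 41.8% ± 2.67 (SD, n = 3). In the second quantification they took 63.5% ± 4.07 and 32.9% ± 4.17. Both have a coding sequence of 711 bases, and they have 6 and 7 exons. Clec10a was split into 54.3% ± 2.34 and 42.5% ± 1.49 (SD, n = 3; 55.3% ± 4.12 and 40.97% ± 1.045 in the second quantification), with coding sequences of 912 and 915 bases. Clec4a1 has 1 annotated transcript.

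Variation between the libraries beyond counting error was called for all 10 receptor genes, against 64.1% of 14037 genes tested. Among the 5405 genes with a mean of at least 1258 counts, that of Clec4a2, the receptor gene with the fewest, the share was 86.3%. The test was a Poisson dispersion test on rounded expected counts with edgeR's TMM factors, adjusted over all genes tested. In this test, with edgeR's factors, the adjusted p ran from 0.000388 for Clec4a2 to 2.32e-242 for Mrc1. Without replicate 3, Clec4a2 was no longer called (adjusted p = 0.72 with edgeR's factors) and the count was 9 of 10. The biological coefficient of variation from edgeR was 0.101 for Clec4e, the lowest, and 0.159 for Clec4a1, the highest, and its median over all genes tested was 0.151. Clec4a1 was above that median. Over the 5405 genes with at least 1258 counts on average the median was 0.104, and 9 of the 10 receptor genes were above it, all but Clec4e.

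By TPM, replicate 1 was highest in 9 of the 10 receptor genes, as in 63.3% of 8699 detected genes. By counts scaled with TMM factors it was highest in 7 of the 10, against 26.2% of detected genes. The 7 were Clec4n, Clec4a1, Clec4a2, Clec4a3, Clec5a, Clec7a and Clec10a. By TPM rescaled over protein-coding genes alone the same 7 were highest in replicate 1, against 41.8% of detected genes. The share of detected genes thus depends on the scale. Clec4d was highest in replicate 1 by TPM but in replicate 2 by scaled counts, and Clec4e in replicate 1 by TPM but in replicate 3 by scaled counts, so neither has a direction that holds on both scales. Mrc1 was highest in replicate 3 on both. In the second quantification its TPM was highest in replicate 1 and lowest in replicate 3, at 45.77, 40.15 and 35.27. Rescaled there over protein-coding genes alone, it was again highest in replicate 3, at 443.7, 438.2 and 542.0.

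**Figure D4:**
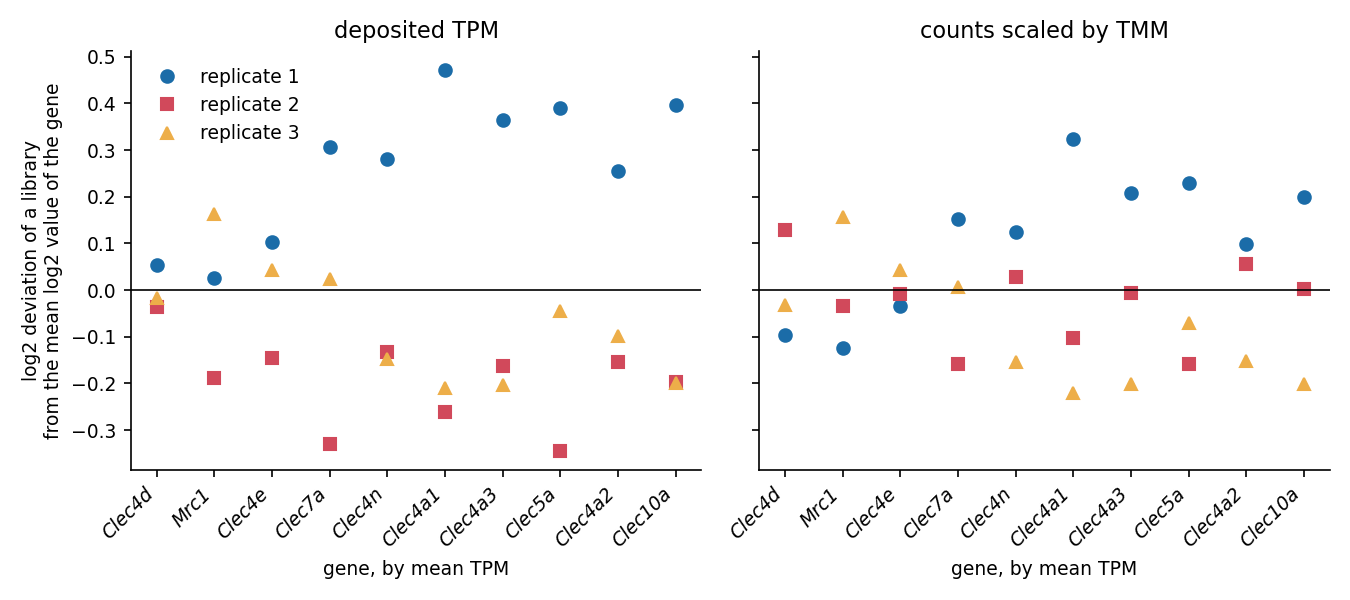
Log2 deviation of each library from the gene's mean log2 value, for deposited TPM (left) and for counts scaled by TMM factors (right). Replicate 1 is the highest point of 9 genes on the left and of 7 on the right, where Clec4d, Mrc1 and Clec4e have it lowest.

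The ratio of the highest to the lowest library was 1.66 by TPM and 1.46 by scaled counts for Clec4a1, larger than in 96.1% and 94.1% of 4924 protein-coding genes with a mean of at least 5 TPM. Clec4d had 1.06 by TPM, larger than in 8.98% of those genes, and 1.17 by scaled counts, larger than in 50.9%. Clec4e had 1.19 and 1.05. The median of the 4924 genes was 1.19 by TPM and 1.16 by scaled counts. The remaining genes lay between 1.28 and 1.66 by TPM and between 1.19 and 1.33 by scaled counts.

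Of 23 partners through which these receptors signal, 22 were detected, against 37.6% of 22015 nuclear-encoded protein-coding genes. The list was chosen with earlier results of these data known, and its median was 15.8 TPM. Of the 3 adaptors, 2 were above every receptor. Tyrobp, the gene of DAP12, which serves MDL-1, had 638, 570 and 609 TPM. Fcer1g, the gene of FcRγ, which serves MCL, Mincle and Dectin-2, had 605, 489 and 472 TPM, highest in replicate 1. Hcst, the gene of DAP10, had 8.83, 8.84 and 8.18 TPM, a level close to that of Clec10a, which it exceeded in 2 of 3 libraries. Both Tyrobp and Fcer1g were above Clec4d, the highest receptor, in every library.

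Of the kinases, Syk had 119, 98.2 and 121 TPM, Prkcd 52.0 ± 6.85 TPM and Lyn 46.7 ± 6.88 TPM (SD, n = 3). Fgr, a Src-family kinase, was the 1 partner not detected, at 0.38 ± 0.11 TPM (SD, n = 3). In the CARD9 complex the members were uneven. Malt1 had 57.4, 25.0 and 52.0 TPM, low in replicate 2, and Bcl10 had 41.7, 30.2 and 33.7 TPM. Card9, the scaffold, had 4.46, 3.58 and 3.86 TPM, and the downstream Traf6 and Map3k7 had 5.89 ± 0.46 and 5.38 ± 0.61 TPM (SD, n = 3). Card9 was below every one of the 10 receptors in every library. The phosphatases that inhibitory receptors recruit were present as well. Inpp5d, Ptpn6 and Ptpn11 had 25.6 ± 3.58, 24.8 ± 3.33 and 11.0 ± 0.45 TPM (SD, n = 3), and Ptpn22 had 3.93 ± 0.75 TPM (SD, n = 3).

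Of 40 other C-type lectin genes 8 were detected, a share of 20.0%, against 37.6% of nuclear-encoded protein-coding genes. The median of the 40 was 0.088 TPM, and this list too was chosen with earlier results of these data known. The highest were Cd93 at 64.7 ± 4.42 TPM, Clec2d at 54.3 ± 6.75 TPM and Clec12a at 44.1 ± 3.00 TPM (SD, n = 3). Cd69, Cd72 and Olr1 followed with 23.6 ± 3.28, 11.7 ± 3.43 and 7.997 ± 2.62 TPM (SD, n = 3). Cd93, the highest of them, lay between Clec7a and Clec4n in mean level. In 8 of the 40 no count was seen in any library, among them Clec4f, a Kupffer cell lectin gene, and Cd209b, a relative of DC-SIGN.

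RefSeq promoter windows of GRCm38.p6, which run from 250 bases before to 50 after a start, were on hand for 8 of the genes, in 10 windows. The 250 bases before the start are printed for the neighbours Clec4d and Clec4e, the pair of cord factor receptor genes, with motif matches on either strand in capitals. They lie at chr6:123261857-123262106 on the plus strand and at chr6:123289872-123290121 on the minus strand.
Clec4d promoter: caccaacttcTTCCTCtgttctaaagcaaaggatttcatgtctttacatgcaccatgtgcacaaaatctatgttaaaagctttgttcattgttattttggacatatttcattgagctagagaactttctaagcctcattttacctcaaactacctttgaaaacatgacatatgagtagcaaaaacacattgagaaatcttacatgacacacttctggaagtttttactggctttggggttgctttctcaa
Clec4e promoter: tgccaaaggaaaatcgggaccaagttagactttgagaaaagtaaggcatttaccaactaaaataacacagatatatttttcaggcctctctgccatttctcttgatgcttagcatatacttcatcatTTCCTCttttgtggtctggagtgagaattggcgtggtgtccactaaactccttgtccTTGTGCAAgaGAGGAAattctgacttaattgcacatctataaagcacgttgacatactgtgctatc

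The core GAGGAA, bound by PU.1, the transcription factor of the macrophage lineage, was found on either strand in 8 of 10 windows and 7 of 8 genes, and in 28.3% of all 32851 windows. The C/EBP core TTGCNNAA was found in Clec4e only, 66 to 59 bases before its start and next to a GAGGAA at 56 to 51 bases, and in 10.8% of all windows. The AP-1 motif TGANTCA was found in Clec4a2 only and in 7.81% of all windows. The NF-kB consensus was found in no window of the 8 genes and in 8.46% of all windows. The motifs printed do not overlap each other in these 2 sequences. A match is a run of letters and no evidence of binding, and these libraries hold no measure of binding.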

How the data were processed

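Per the text listings deposited with each library, gene and transcript tables in the column layout of RSEM derive from transcriptome alignments, and a transcript table in that of kallisto from the reads, with mm10 and GENCODE M21. For the aligner, the versions of tools and the use of strand, nothing is given in the sources used. The authors deposited expected counts (estimated counts in the kallisto layout), TPM and FPKM per the file headers. Transcript shares, in percent of the gene total, were also deposited. The credibility bounds, held as a signal with no fixed sum, were deposited too and cover uncertainty within a library.

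The 10 members, and the lists of signalling partners, other lectins and cell markers, were chosen with earlier results of these data known. All 10 were named, with the 6 highest and 2 lowest signalling partners and other lectins (all of a subgroup of 5 or fewer). Other genes, such as those beside the members, single cell markers and Malat1, were named after their values were seen. Kallisto-layout TPM was summed per gene. Expected counts were rounded and scaled with TMM in edgeR 4.0.16 (R 4.3.3, design of an intercept alone). Genes averaging under 10 counts were left out. The dispersion test was a chi-square with 2 degrees of freedom, Benjamini-Hochberg adjusted at 0.05. It was tested on simulated data. Other steps used Python 3.11.15, pandas 2.3.3 and Biopython 1.88. Totals here were 30948620 to 113924667 counts, so counting error of the members, each with at least 651 counts, is small. Alternatives were DESeq2 1.42.0 size factors, other filters and scales, and each library left out. Protein sequences were not used here, and identity was taken from coding sequences.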

Additional observations from a re-analysis of the deposited data

How the results depend on the processing

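All 10 members were detected at TPM of at least 0.5 or 5, in the second quantification and without any 1 library. The number of genes with variation beyond counting error, 9003 with edgeR's TMM factors, was 9014 with DESeq2 size factors, 8687 with library totals, 9866 with no filter on low counts, 7282 over protein-coding genes only and 4664 of the 5405 genes with at least 1258 counts on average, chosen after seeing the data. It ranged from 5249 to 7167 when 1 library was left out, lowest without replicate 2. The number of members called was 10 under these settings, except 9 of 9 over protein-coding genes, where the class of Clec7a leaves it out, and it ranged from 9 to 10 when 1 library was left out. The median of the signalling partners moved from 15.8 to 19.7 TPM over those with a mean of at least 1 TPM and to 7.61 TPM in the second quantification. That of the other lectin genes moved from 0.088 to 17.6 TPM and to 0.055 TPM. Member levels moved with every rescaling (FPKM, protein-coding genes only, second quantification) by more than 1 SD and not with posterior mean TPM or a library left out. The number of neighbouring pairs in the same order in every library was 7 with TPM, FPKM, posterior mean TPM and the second quantification. The share of the highest transcript moved by more than 1 SD in 6 of 10 genes in the second quantification; the cause was not tested. No paired analysis was possible because there is only 1 group. Depth limits the lectin genes with few counts, such as Clec4a4 and Clec4b2, not the members.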
